A study of Mus musculus with 6 samples.

Results

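The genes described here are 42 genes of mitosis and of the step from G2 into mitosis (G2/M). They encode CDK1 with its cyclins and CDC25 phosphatases, the mitotic kinases, the chromosomal passenger complex and the spindle checkpoint. Also among them are the activator Cdc20 and the enzyme Ube2c of the anaphase-promoting complex (APC/C), centromere and kinetochore proteins, spindle motors and cytokinesis factors. The chromatin or transcription proteins are Foxm1, Top2a and Mki67. The 42 genes were chosen by name for these functions. The most intense probe of each gene was used, so the measured difference between genotypes played no part in choosing the probe. All 42 had such a probe among the 15750 genes tested, and for 41 of them it lay well above background on all 6 arrays. Cenpf passed through 4 of the 6 arrays.

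Macrophages were grown from the bone marrow of 11-week-old C57BL/6 mice for 5 days at 37 °C and 5% CO2 with 10 ng/mL GM-CSF (granulocyte/macrophage colony stimulating factor, a growth factor for myeloid cells) and 10% fetal bovine serum, and RNA of each culture was hybridised to its own Agilent array. The Bach1 knockout group (KO 947, KO 948 and KO 949) came from 3 independent mice labelled Bach1 KO, of which 947 and 948 were male and 949 was female. The wild-type group (WT 1, WT 2 and WT 3) came from 3 independent mice, of which 1 and 2 were male and 3 was female. BACH1 is a heme-binding repressor of transcription, and the series was made to study its function in heme and iron homeostasis. The labels do not describe the Bach1 allele itself.

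Cells divide by first copying their DNA in S phase and then, after a gap, separating the copies in mitosis. CDK1 bound to cyclins A and B drives entry into mitosis, the Aurora and Polo kinases build the spindle, the checkpoint holds the APC/C until every kinetochore is attached, and cytokinesis then splits the cell. Transcripts of these genes are low in resting cells and peak together in G2 and mitosis, under control of the DREAM and MuvB complexes, B-MYB and FOXM1. Bone marrow cultures given GM-CSF start from dividing progenitors whose descendants leave the cell cycle as they mature.

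That shared control works largely through promoter elements close to the start site: the cell cycle homology region, written TTTGAA or TTCGAA, and CCAAT boxes, bound by NF-Y. The RefSeq promoter windows of mouse build GRCm38.p6, 250 bases before to 50 bases after each start, matched 34 of the 42 genes with 37 windows. TTTGAA or TTCGAA, searched on both strands, was found in 78.4% of those windows, against 19.2% of all 32851 windows of the same length. CCAAT, searched on both strands too, stood in 78.4% of the member windows and in 37.4% of all windows. Both kinds together stood in 70.3% and 7.52%. They stood in 31.7% of the windows of a wider list of mitosis genes and in 13.5% of those of DNA replication and G1/S genes. Such a match is a string of letters and not a known binding site. The windows below belong to the 4 genes with the lowest p-values between genotypes that hold both kinds, with the motifs in capitals.
Spc25: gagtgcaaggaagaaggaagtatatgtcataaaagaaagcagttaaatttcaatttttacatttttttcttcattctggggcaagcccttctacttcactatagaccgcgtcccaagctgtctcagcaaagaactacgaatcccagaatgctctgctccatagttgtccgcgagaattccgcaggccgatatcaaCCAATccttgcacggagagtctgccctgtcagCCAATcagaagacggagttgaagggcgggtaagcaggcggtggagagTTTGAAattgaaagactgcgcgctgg
Ect2: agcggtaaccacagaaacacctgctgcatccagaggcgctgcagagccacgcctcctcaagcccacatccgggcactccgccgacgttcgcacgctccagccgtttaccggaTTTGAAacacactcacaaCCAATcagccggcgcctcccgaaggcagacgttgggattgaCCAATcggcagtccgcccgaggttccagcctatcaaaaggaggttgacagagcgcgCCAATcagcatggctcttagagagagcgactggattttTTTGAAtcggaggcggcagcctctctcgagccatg
Aurka: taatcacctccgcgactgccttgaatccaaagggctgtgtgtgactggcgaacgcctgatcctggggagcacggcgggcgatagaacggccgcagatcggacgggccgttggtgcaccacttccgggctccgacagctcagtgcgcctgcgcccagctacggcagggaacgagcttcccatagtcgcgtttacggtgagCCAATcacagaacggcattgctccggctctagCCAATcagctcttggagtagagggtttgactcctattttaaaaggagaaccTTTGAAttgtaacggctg
Prc1: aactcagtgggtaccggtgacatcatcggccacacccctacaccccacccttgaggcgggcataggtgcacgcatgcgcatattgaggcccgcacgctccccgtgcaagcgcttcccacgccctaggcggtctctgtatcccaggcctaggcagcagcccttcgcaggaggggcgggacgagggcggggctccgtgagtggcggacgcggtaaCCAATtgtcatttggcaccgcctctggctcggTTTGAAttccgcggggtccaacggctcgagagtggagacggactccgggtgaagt

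The windows lie at chr2:69206164-69206463 on the minus strand for Spc25, chr3:27153805-27154104 on the minus strand for Ect2, chr2:172370521-172370820 on the minus strand for Aurka and chr7:80294201-80294500 on the plus strand for Prc1, each printed 5′ to 3′ along its gene. Counted with the start site as 1 and the base before it as -1, the first base of TTTGAA stood at 25 in Spc25, at -138 and 16 in Ect2, at 33 in Aurka and at -5 in Prc1. The nearest CCAAT lay upstream of the start in each, at -23 in Spc25, -23 in Ect2, -19 in Aurka and -37 in Prc1. The 37 windows did not all share this layout, since 26 of them (70.3%) held both kinds. TTTGAA or TTCGAA began within 25 bases after the start in 35.1% of the member windows, against 1.00% of the windows of the other tested genes, while CCAAT was most frequent in the bin starting at -75, with 37.8% against 8.32%. Mad2l1, Melk, Birc5, Nuf2 and Nusap1 held neither kind.

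**Figure D1:**
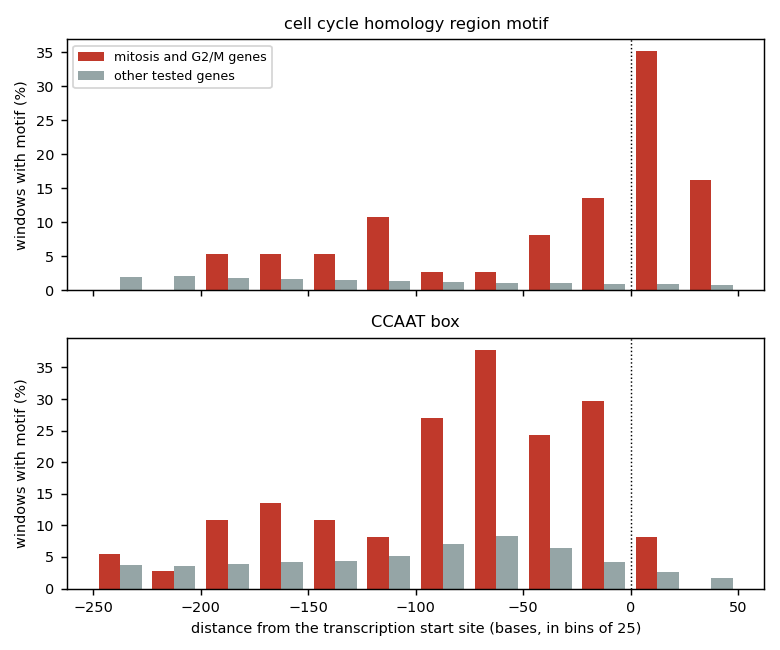
Share of promoter windows (%) with a motif starting in each 25-base bin, against distance from the transcription start site in bases, for the mitosis and G2/M genes (red, 37 windows) and the other tested genes (grey, 15680 windows). The upper panel shows TTTGAA or TTCGAA, which peaked just after the start at 35.1%, and the lower panel shows CCAAT, which peaked in the bin starting at -75 at 37.8%.

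Levels below are log2 processed intensities minus the log2 of the 75th percentile of the same array, so that 0 is that percentile. They compare arrays for one probe and say nothing of which gene is more abundant. Differences are KO minus WT with the standard error (SE) of the limma fit, and adjusted p-values are Benjamini-Hochberg values over all 15750 genes, with a threshold of 0.05. In bulk RNA, fewer cells of a type and less RNA per cell cannot be told apart.

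As a check of the labels, the single Bach1 probe stood at 1.45, 2.00 and 2.23 on KO 947, 948 and 949, against 2.21, 2.48 and 2.59 on WT 1, 2 and 3, a difference of -0.54 ± 0.24 (SE) with an adjusted p of 0.262 in limma. KO 949 overlapped WT 1. Since the labels do not describe the allele, whether the probe sits in the deleted sequence is unknown and the labels are not checked by it. Hmox1, a known target of BACH1 repression, rose by 2.14 ± 0.25 (limma adjusted p = 0.0115), without overlap of the genotypes. KO 947 shared slide 1 with the 3 WT arrays, and KO 948 and KO 949 lay on slide 2. With the slide as a block, KO 947 alone is therefore set against WT. Spots well above background made up 62.5% to 65.1% of the spots on the KO arrays and 70.3% to 73.2% on the WT arrays.

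Most of the mitosis and G2/M genes had higher levels in KO macrophages by a small amount, and few of them could be separated from the spread between mice. The difference was above 0 for 38 of 42 genes, against 49.2% of all genes tested, and its median was 0.29, against -0.0067 for all genes. It ran from -0.15 for Cenpa to 0.84 for Ect2, so no member differed by a factor of 2 in either direction. Only Spc25 passed the threshold, as the 1 member that rose, where 1.14% of all genes rose and 2.27% fell. None of the 42 fell. Both directions together were called for 3.42% of all genes. At an unadjusted p under 0.05, 9 members were higher (21.4%) and 0 were lower, against 8.86% higher and 11.6% lower among all genes. In 10 members (23.8%) every KO array lay above every WT array, where 13.4% of all genes did so, and in 0 members every KO array lay below, against 13.5% of all genes. Another scaling moved these values: scaled to the array median, all genes shifted to a median of 0.21 and the 42 to 0.51, with all 42 above 0. Both scalings subtract a constant from each array, which shifts all genes nearly alike. The gap between the members and all genes could therefore hardly change, at 0.29 and 0.30. With quantile normalization, with or without another background correction, that gap was 0.23. Of all calls, 33.5% were higher in KO in the analysis reported here and 62.6% with median scaling.

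**Figure D2:**
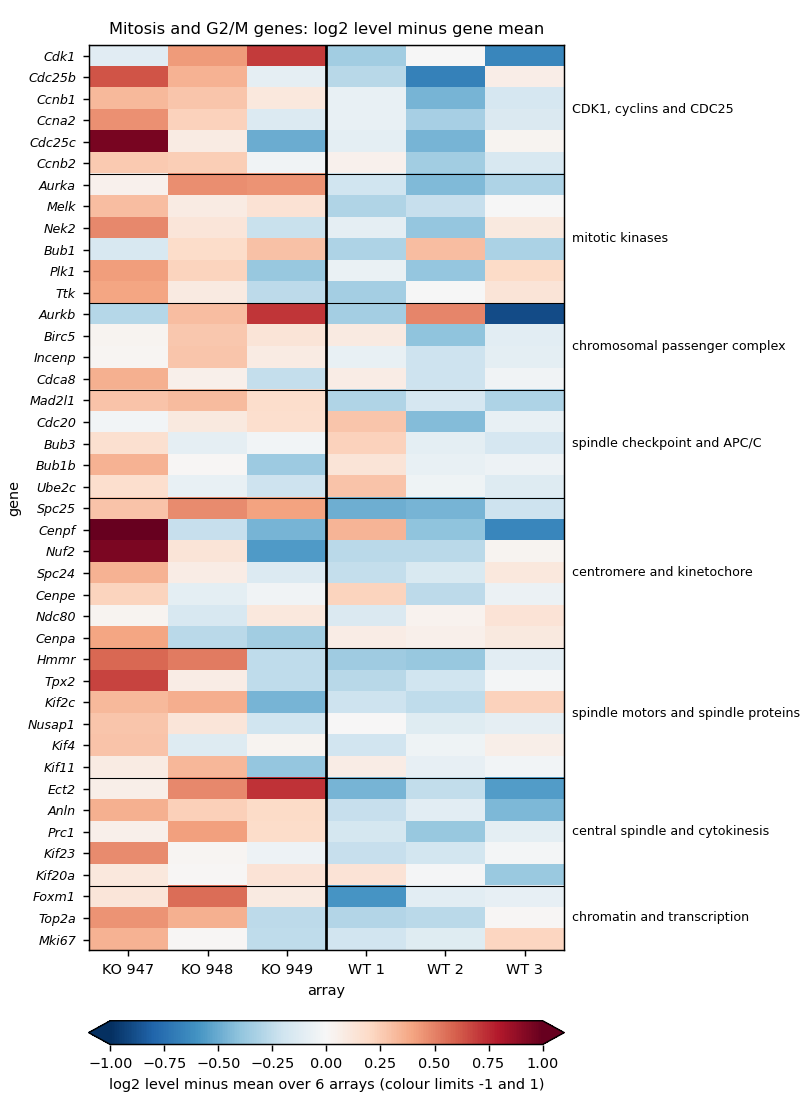
Heat map of the 42 genes (rows, grouped by role) on the 6 arrays (columns, KO left of WT), coloured by log2 level minus the gene's mean over the 6 arrays, with colours limited at -1 and 1. Red prevails in KO 947 and KO 948 and blue in the WT columns, while KO 949 is red for Cdk1, Aurka, Aurkb and Ect2 and blue for most spindle motor genes.

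The KO arrays did not carry this difference equally. KO 947 was the highest of the 6 arrays for 23 of the 42 genes and KO 949 was the lowest KO array for 26. The median of the 42 genes, each centred on its own mean, was 0.30, 0.16 and -0.044 on KO 947, 948 and 949, against -0.18, -0.20 and -0.078 on WT 1, 2 and 3. KO 949, the female of its group, thus stood nearer to each WT array, male or female, than to KO 947 or KO 948. The nearest was WT 3, the female of the other group. A smaller set ran the other way: KO 947 was the lowest KO array for 10 genes, namely Spc25, Ect2, Aurka, Prc1, Cdk1, Incenp, Birc5, Aurkb, Bub1 and Cdc20. With the slide as a block, which leaves KO 947 against WT, 40 of 42 differences were above 0 (52.4% of all genes), the median was 0.41 (0.025 for all genes), and 0 members passed the threshold, against 0.533% of all genes. At an unadjusted p under 0.05 that fit had 12 members higher, against 8.89% of all genes. Without KO 947, 29 of 42 were above 0, the median was 0.15, and 3 members passed: Spc25, Ect2 and Aurka. Without any other single array 0 members passed.

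The kinetochore joins chromosomes to spindle microtubules, and its outer NDC80 complex consists of Ndc80, Nuf2, Spc24 and Spc25. Spc25 had levels of 3.45, 3.65 and 3.58 on KO 947, 948 and 949, against 2.68, 2.71 and 2.96 on WT 1, 2 and 3. All KO values lay above all WT values, and both groups were tight. The rise was 0.77 ± 0.15 (SE), or 1.71-fold, with a limma adjusted p of 0.0482, just under the threshold. Of 21 alternative analyses, 8 kept it under the threshold, and the difference stayed between 0.65 and 0.99 in all 21. The adjusted p was 0.0445 without KO 947, and 0.171, 0.138, 0.155, 0.135 and 0.0731 without KO 948, KO 949, WT 1, WT 2 and WT 3. None of its 3 partners in the complex passed the threshold, and whether they differed from Spc25 was not tested. Nuf2 stood at 1.20, 0.39 and -0.31 in the KO cultures, against -0.0094, -0.0082 and 0.29 in the WT cultures. The KO spread covered the whole WT range, and the difference was 0.34 ± 0.37 with a 95% interval of -0.54 to 1.21, which includes the Spc25 value. Ndc80 read -2.24, -2.43 and -2.16 in KO and -2.41, -2.23 and -2.13 in WT, a difference of -0.015 ± 0.15 with a 95% interval of -0.38 to 0.35. Spc24 differed by 0.19 ± 0.18.

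Of the centromere proteins, Cenpa, the histone H3 variant that marks centromeres, had 2.60, 1.93 and 1.85 in KO, against 2.28, 2.25 and 2.30 in WT. The WT values nearly coincided while KO 947 was above and KO 948 and 949 below them, and the difference of -0.15 ± 0.22 was the lowest among the 42. Cenpe, a kinetochore motor, read 2.82, 2.50 and 2.56 in KO and 2.82, 2.33 and 2.54 in WT, so that the groups overlapped closely. Cenpf, a large kinetochore and nuclear matrix protein, was read near background, at -3.50, -5.15 and -5.38 in KO and -4.58, -5.32 and -5.57 in WT. KO 947 alone lay above the WT range, and the difference was 0.48 ± 0.52.

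Genes of the central spindle and cytokinesis were the role group with the most separated members. In 3 of its 5 genes every KO array lay above every WT array, where 13.4% of all genes did so. Ect2, the exchange factor that activates RhoA at the cleavage furrow, had 0.97, 1.39 and 1.63 on KO 947, 948 and 949, against 0.44, 0.66 and 0.35 on WT 1, 2 and 3. Its difference of 0.84 ± 0.21 (1.80-fold) was the largest of the 42, with a limma adjusted p of 0.0833. Anln, the scaffold of the contractile ring, read 2.87, 2.75 and 2.70 in KO and 2.28, 2.41 and 2.06 in WT, a difference of 0.52 ± 0.15 (limma adjusted p = 0.125). Prc1, which bundles microtubules of the central spindle, read 3.75, 4.12 and 3.89 in KO and 3.53, 3.33 and 3.61 in WT, a difference of 0.43 ± 0.16 (limma adjusted p = 0.205). All 3 were above WT on every KO array, and none of the 3 passed the threshold. Kif23, a motor of the centralspindlin complex, differed by 0.30 ± 0.19 and Kif20a by 0.17 ± 0.17, both with overlapping groups. Centred medians of the 5 genes were 0.10, 0.24 and 0.19 in KO and -0.23, -0.19 and -0.37 in WT, and here KO 949 did not stand below the other KO arrays.

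**Figure D3:**
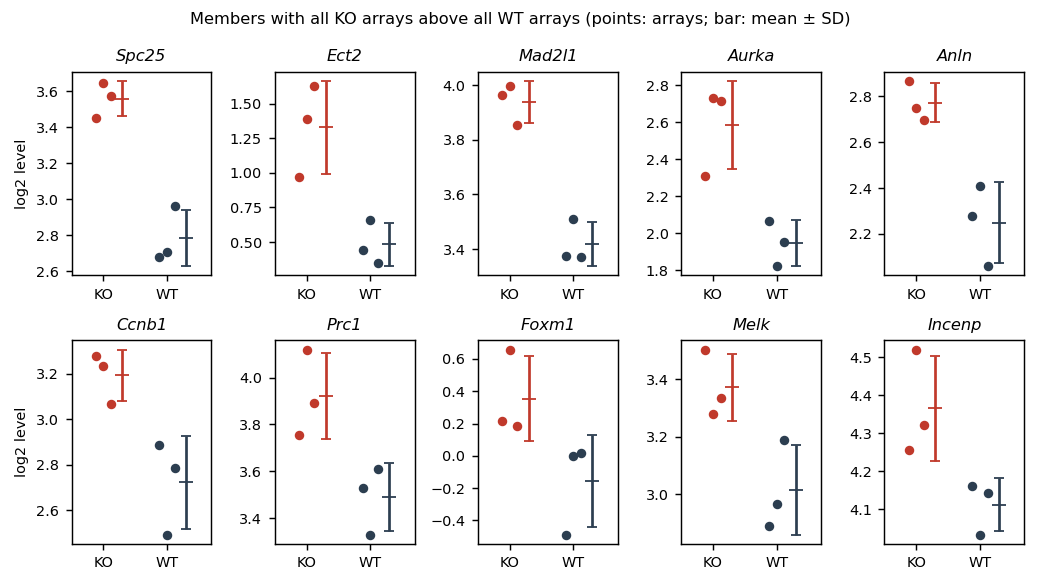
Log2 level (relative to the array's 75th percentile) of the 10 genes whose KO arrays all lay above all WT arrays. Points are arrays, bars are mean and SD of 3 arrays, KO left of WT, each panel with its own axis. Mad2l1 shows tight groups (SD 0.076 in KO and 0.080 in WT), and in Melk and Incenp the gap between genotypes was small.

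In the cyclin-dependent kinase module all 6 differences were above 0, with a median of 0.42. Cdk1, the kinase that starts mitosis, had 2.76, 3.30 and 3.57 on KO 947, 948 and 949, against 2.52, 2.87 and 2.22 on WT 1, 2 and 3. KO 947 lay inside the WT range, and the difference of 0.67 ± 0.27 had a limma adjusted p of 0.220. Ccnb1, its cyclin B1 partner, read 3.28, 3.23 and 3.07 in KO and 2.89, 2.49 and 2.79 in WT, without overlap. That difference was 0.47 ± 0.16 (limma adjusted p = 0.172). Cyclins A2 and B2 were similar in size. Ccna2 had 3.72, 3.49 and 3.12 in KO and 3.19, 2.93 and 3.12 in WT, a difference of 0.37 ± 0.19. Ccnb2 had 4.04, 4.02 and 3.74 in KO and 3.82, 3.43 and 3.61 in WT, a difference of 0.31 ± 0.17. In both, KO 949 reached into the WT range. Cdc25b, the phosphatase that removes inhibitory phosphates from CDK1, had 2.82, 2.54 and 2.11 in KO and 1.92, 1.52 and 2.26 in WT, a difference of 0.59 ± 0.26 with overlap at KO 949 and WT 3, the female mice. Cdc25c, of the same family, read -3.57, -4.43 and -5.01 in KO and -4.61, -4.98 and -4.49 in WT, so that KO 947 and KO 948 lay above the WT range and KO 949 below it.

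Among the mitotic kinases, all 6 differences were above 0, with a median of 0.23. Aurka, the Aurora kinase of spindle poles, had 2.31, 2.73 and 2.71 on KO 947, 948 and 949, against 2.07, 1.82 and 1.96 on WT 1, 2 and 3. The groups did not overlap, and the difference was 0.63 ± 0.17 (1.55-fold, limma adjusted p = 0.108). Melk, a kinase abundant in dividing cells, read 3.50, 3.28 and 3.34 in KO and 2.89, 2.97 and 3.19 in WT, a difference of 0.36 ± 0.15 without overlap (limma adjusted p = 0.254). Plk1, the Polo kinase, read 3.08, 2.88 and 2.29 in KO and 2.60, 2.28 and 2.85 in WT, a difference of 0.17 ± 0.26. Here the female WT 3 was the highest WT array and the female KO 949 the lowest KO array. Bub1, a checkpoint kinase, read 1.04, 1.39 and 1.49 in KO and 0.90, 1.51 and 0.89 in WT, and its difference of 0.21 became -0.057 once the slide was a block. Nek2, a centrosomal kinase, differed by 0.25 ± 0.23 and Ttk, the checkpoint kinase MPS1, by 0.15 ± 0.22.

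The chromosomal passenger complex joins Aurora B to INCENP, survivin and borealin, encoded by Aurkb, Incenp, Birc5 and Cdca8. Incenp had 4.26, 4.52 and 4.32 in KO and 4.16, 4.03 and 4.14 in WT, a difference of 0.25 ± 0.14 without overlap, and its other probe gave 0.27. Birc5 had 5.60, 5.84 and 5.70 in KO and 5.66, 5.17 and 5.47 in WT, a difference of 0.28 ± 0.18 with KO 947 below WT 1. Aurkb was the most variable of the 4, with -2.39, -1.79 and -1.38 in KO and -2.44, -1.61 and -3.00 in WT. Its difference of 0.49 ± 0.40 had a 95% interval from -0.46 to 1.45 and became -0.038 with the slide as a block. Cdca8 had 4.96, 4.65 and 4.36 in KO and 4.67, 4.40 and 4.56 in WT, a difference of 0.11 ± 0.19. None of the 4 passed the test.

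The spindle checkpoint and APC/C genes split. Mad2l1, the checkpoint protein that binds CDC20 at unattached kinetochores, had 3.96, 3.999 and 3.85 on KO 947, 948 and 949, against 3.37, 3.51 and 3.37 on WT 1, 2 and 3. Its SD was 0.076 in KO and 0.080 in WT, and the difference of 0.52 ± 0.14 (1.43-fold) had a limma adjusted p of 0.0972. The other 2 Mad2l1 probes gave 0.61 and 0.49. The remaining members lay close to 0. Bub3, another checkpoint protein, read 4.86, 4.61 and 4.68 in KO and 4.93, 4.60 and 4.54 in WT, a difference of 0.027 ± 0.17 with a 95% interval of -0.37 to 0.43. Bub1b, which encodes BUBR1, read 1.46, 1.13 and 0.76 in KO and 1.25, 1.04 and 1.07 in WT, a difference of -0.0035 ± 0.21. Ube2c, the ubiquitin-conjugating enzyme of the APC/C, read 3.94, 3.70 and 3.57 in KO and 4.06, 3.73 and 3.65 in WT, a difference of -0.076 ± 0.18. Cdc20, the activator of the APC/C, differed by 0.16 ± 0.21. In these 4 genes the groups overlapped.

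Of the spindle motors and spindle proteins, all 6 differences were above 0, from 0.023 to 0.56, and in none were the genotypes separated. Hmmr, a microtubule-associated hyaluronan receptor, had 0.99, 0.93 and 0.16 on KO 947, 948 and 949, against 0.057, 0.029 and 0.31 on WT 1, 2 and 3. KO 947 and 948 stood well above WT while KO 949 lay inside the WT range, and the difference was 0.56 ± 0.25 (limma adjusted p = 0.267). Tpx2, which activates Aurora A on the spindle, differed by 0.33 ± 0.25, Kif2c, a microtubule-depolymerising kinesin, by 0.15 ± 0.27, and Nusap1 by 0.13 ± 0.17. Kif4, a chromokinesin, differed by 0.12 ± 0.17 and Kif11, the kinesin that pushes spindle poles apart, by 0.023 ± 0.21. Centred medians of the 6 genes were 0.31, 0.23 and -0.25 in KO and -0.20, -0.16 and -0.022 in WT, so that KO 949 was the lowest of all arrays.

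Foxm1, the transcription factor that drives many G2/M genes, had 0.22, 0.66 and 0.19 on KO 947, 948 and 949, against -0.49, -0.0044 and 0.020 on WT 1, 2 and 3. The groups did not overlap, the difference was 0.51 ± 0.21 (limma adjusted p = 0.244), and a second, dim probe gave -0.077. Top2a, the topoisomerase that untangles replicated chromosomes, read 0.59, 0.50 and -0.12 in KO and -0.15, -0.12 and 0.16 in WT, a difference of 0.36 ± 0.23 with overlap. Mki67, which encodes the proliferation marker Ki-67, read 4.38, 4.05 and 3.78 in KO and 3.84, 3.91 and 4.25 in WT. Its difference was 0.071 ± 0.21, with a 95% interval of -0.42 to 0.56, and its second probe gave -0.0024. Mki67 and Top2a thus did not separate the genotypes.

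**Figure D4:**
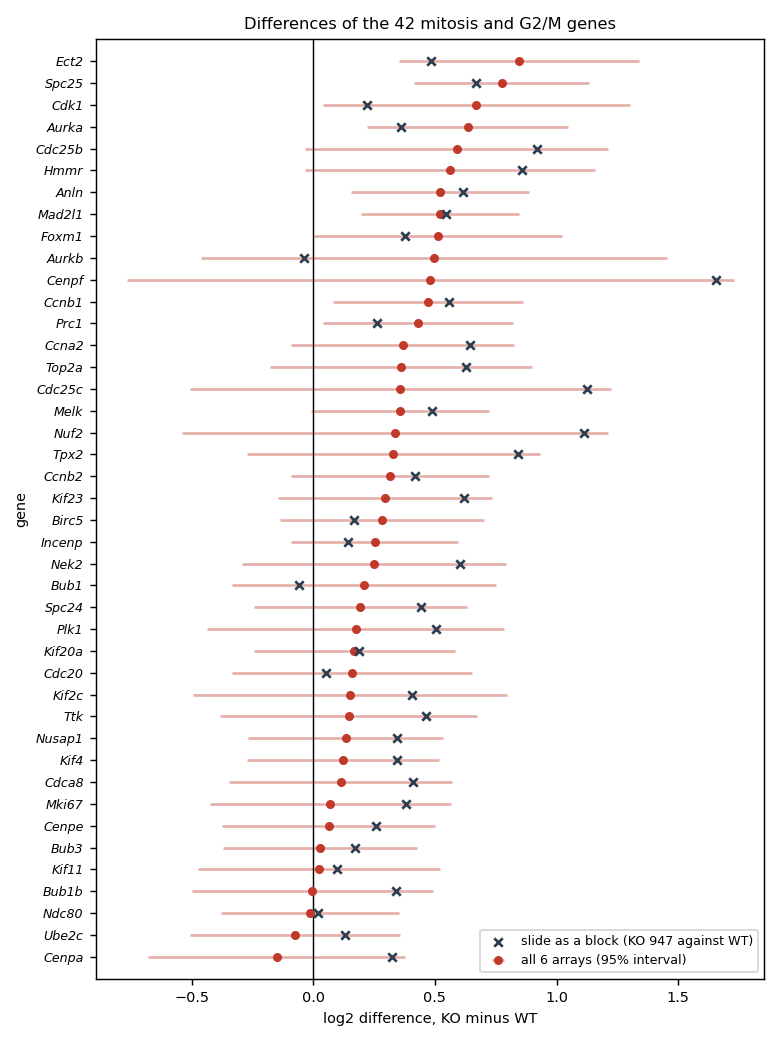
Log2 difference, KO minus WT, for the 42 genes. Red points with bars are the fit over all 6 arrays with its 95% interval, and crosses are the fit with the slide as a block, which sets KO 947 against WT. Of the red points, 38 lie right of 0, and of the crosses 40 do, with Cenpf, Cdc25c and Nuf2 farthest out at 1.66, 1.13 and 1.11.

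Probes agreed in part. Of 58 member probes, 57 were well above background on at least 3 arrays, and 50 of the 57 were higher in KO. Among the 11 genes with several such probes, the probes differed in sign for 4, namely Foxm1, Kif2c, Mki67 and Ube2c, with values below 0 of -0.077, -0.14, -0.0024 and -0.076. All 3 Cdk1 probes were above 0, at 0.67, 0.90 and 0.76, and so were all 3 Ccnb1 probes, at 0.47, 0.41 and 0.66. In the authors' deposited table, whose 3215 probes all separate the genotypes, 6 probes belong to 5 of the 42 genes: Anln, Aurka, Ect2, Mad2l1 and Spc25, all higher in KO. That table was made from the same arrays and is no independent evidence.

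The genotype difference was also set against sex, which has 1 female per genotype. No member passed for female minus male or for the interaction of sex and genotype, with lowest adjusted p-values of 1.00 and 0.578 in limma. Among all genes sex was called for 0.00635% and the interaction for 0.0254%. At an unadjusted p under 0.05, 0 members differed by sex, against 1.17% of all genes higher and 1.68% lower in females. At that level 7 members had an interaction, against 7.10% of all genes. Of these, Cdc25b, Hmmr, Top2a, Nuf2, Plk1 and Kif2c had a smaller KO minus WT difference in the female pair, and Aurkb a larger one. Over all 42 the interaction was below 0 for 33, with a median of -0.34, against -0.024 for all genes. The female pair is KO 949 on slide 2 and WT 3 on slide 1 alone. Sex, these mice and in part the slide therefore cannot be told apart. The interaction fit left 2 residual degrees of freedom.

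Other cell cycle genes lay mostly above 0 as well. Of a wider list of mitosis genes, 127 of 131 were measured, 112 were above 0, and the median was 0.29, the same as for the 42. Of all genes 49.2% were above 0, 1.14% rose and 2.27% fell. On the wider list 4 rose and 0 fell past the threshold: Cdca7 by 1.34 ± 0.15, Cenpi of the inner kinetochore by 1.15 ± 0.21, Ska2 of the outer kinetochore by 0.90 ± 0.14, and Wee1 by 0.85 ± 0.15. WEE1 inhibits CDK1. The inner and outer kinetochore genes of that list were above 0 in 31 of 32, with a median of 0.42. Its APC/C group, which holds subunits together with Fzr1, Ube2s and Fbxo5, was above 0 in 10 of 14, with a median of 0.16. The medians of the wider list were 0.15, 0.17 and 0.13 on KO 947, 948 and 949, against -0.17, -0.14 and -0.18 on WT 1, 2 and 3. On this list KO 949 stood level with the other KO arrays. The calls passed in 17 (Cdca7), 8 (Cenpi), 10 (Ska2) and 9 (Wee1) of 21 alternatives, and with single arrays left out the count of calls ran from 0 without WT 1 to 7 without KO 947.

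DNA replication and G1/S genes, which act before mitosis in the cycle, had the higher median. Of 56 listed, 55 were measured, 52 were above 0 with a median of 0.41, and 28 were higher at an unadjusted p under 0.05, against 8.86% of all genes. Past the threshold 5 rose and 0 fell, among them Lig1 by 1.26 ± 0.23, Cdc6 by 1.10 ± 0.15, Pola1 by 0.89 ± 0.15 and Uhrf1 by 0.86 ± 0.14. These 4 encode a DNA ligase, a loader of the replicative helicase, a polymerase subunit and a factor that maintains DNA methylation. In 37 of the 55 (67.3%) every KO array lay above every WT array, against 10 of the 42 mitosis and G2/M genes and 13.4% of all genes. The difference between the lists was not tested. These calls passed in 8 (Lig1), 14 (Cdc6), 9 (Pola1) and 10 (Uhrf1) of 21 alternatives, and the count fell to 0 without WT 1 or without KO 948 and stayed at 5 without KO 947.

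**Figure D5:**
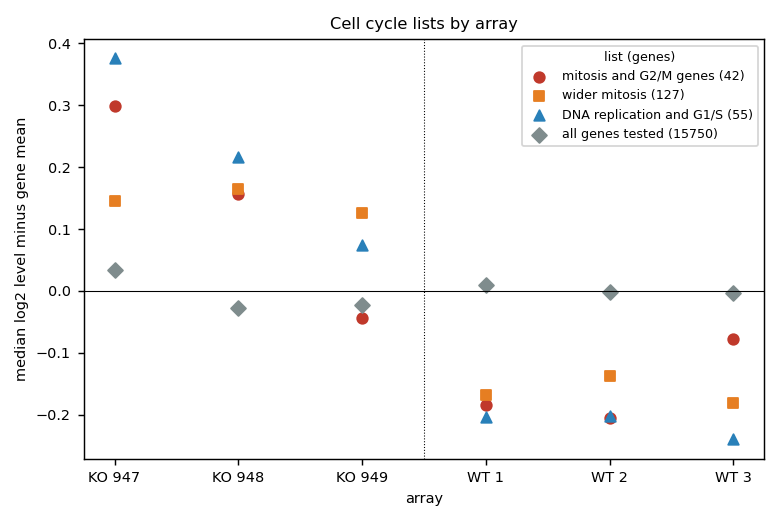
Median over genes of log2 level minus gene mean, on each array (KO left of WT), for the mitosis and G2/M genes, the wider mitosis list, the DNA replication and G1/S list and all genes tested. All 3 cell cycle lists are below 0 on the WT arrays. KO 949 is at -0.044 for the mitosis and G2/M genes and at 0.13 and 0.075 for the wider mitosis and the G1/S lists.

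Of 7 CDK inhibitors, Cdkn1c fell and the other 6 did not pass, where 2.27% of all genes fell and 1.14% rose. Cdkn1c, which encodes p57, stood at 0.28, -0.076 and -0.013 on KO 947, 948 and 949, against 1.31, 1.66 and 1.90 on WT 1, 2 and 3, a difference of -1.56 ± 0.20 (limma adjusted p = 0.0160). The groups were far apart, and 15 of 21 alternatives kept the call, which was lost without KO 948, KO 949 or WT 2 (limma adjusted p of 0.0680, 0.0530 and 0.0644), with the slide as a block (0.0942), on the slide with both genotypes alone (0.158) and on male arrays alone (0.101). Cdkn2a, which encodes p16 and p19ARF, differed by -0.92 ± 0.32 (limma adjusted p = 0.168) and Cdkn2b, p15, by -0.79 ± 0.29 (limma adjusted p = 0.194), each with all KO arrays below all WT arrays. Cdkn1a, p21, was above 0 at 0.33 ± 0.14 and Cdkn2d, p19, at 0.39 ± 0.14, each with all KO arrays above WT, with limma adjusted p-values of 0.251 and 0.184. Cdkn2c differed by 0.29 ± 0.19 and Cdkn1b by -0.11 ± 0.38. Of all genes tested, the genotypes were fully separated in 13.5% with KO lower and in 13.4% with KO higher.

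The promoter letters were also set beside the genotype differences of genes outside the 42, without a test. Among the 897 other tested genes whose windows hold both motif kinds, 49.9% were higher in KO with a median of -0.0011, against 49.2% with a median of -0.0062 among 11624 genes without both. Of the 42, the 23 with both kinds had a median of 0.21 and the 11 matched genes without both had 0.28.

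Markers of cell types were read in the same cultures, and genes of some types differed between genotypes. Of all genes tested, 49.2% were above 0, 1.14% rose and 2.27% fell past the threshold. Every KO array lay above every WT array in 13.4% of all genes and below in 13.5%. Of 10 measured macrophage markers, among them Adgre1, Csf1r and Lyz2, 6 were above 0 and 4 below, from -1.29 to 0.32. Every KO array lay above every WT array in 3 of them and below in 2. The threshold was passed by 0 of the 10. Their summed level on the log2 scale was 9.11 to 9.24 in KO and 9.07 to 9.37 in WT. Stromal markers were below WT in 10 of 11 measured, with 3 that fell (Col1a1, Col1a2 and Sparc) and sums of 5.37 to 5.64 in KO against 5.43 to 6.09 in WT. Dendritic cell markers were below WT in 14 of 14, with 6 that fell (Ccr7, Cd83, H2-Aa, Ciita, Ccl22 and Cd209a) and sums of 8.37 to 8.51 in KO against 8.89 to 9.16 in WT. Markers of eosinophils, mast cells and basophils were below WT in 10 of 11, with 3 that fell (Mcpt8, Prss34 and Kit) and sums of 2.86 to 4.56 in KO against 4.70 to 5.81 in WT. The basophil protease Mcpt8 stood between -7.76 and -7.43 on the KO arrays, below the lowest level well above background there (-5.69 to -5.49). Granulocyte markers were below WT in 11 of 14, with S100a9 the 1 that fell and sums of 8.03 to 8.22 in KO against 8.41 to 8.66 in WT. Progenitor markers were above 0 in 5 of 9, with 0 past the threshold and sums of 4.33 to 4.64 in KO against 3.59 to 4.12 in WT. Cebpe at 0.87 ± 0.19 and Cd34 at 0.66 ± 0.20 lay above WT on all KO arrays without passing, and Myb at -0.83 ± 0.18 lay below. Erythroid, lymphoid and endothelial markers had 0 calls among 5, 4 and 4 measured, and their sums overlapped between genotypes. With the slide as a block, only Ciita of the dendritic cell markers (limma adjusted p = 0.0406) and Sparc of the stromal markers (limma adjusted p = 0.0488) still passed, and neither S100a9 nor Mcpt8, Prss34 or Kit did. The part of these cell types in the levels of the mitosis and G2/M genes was not tested.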

How the data were processed

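Expression was measured on 6 Agilent mouse arrays (1 colour, Cy3), 3 Bach1 KO and 3 WT, each of a different mouse. The scanner software was version 10.7.3.1 in the file headers, while the submitters' processing notes name 9.1. The scanner files hold spot intensities that were background-subtracted and spatially detrended by Agilent Feature Extraction before they were deposited, per the file headers. They were not scaled between arrays. A deposited log2 table of 3215 probes, centred per probe by the authors, served as an alternative only, since its probes all separate the genotypes.

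From the processed intensities, log2 values minus the log2 75th percentile of the array were computed, outlier spots were left out, and spots of a probe were averaged. Of 55681 probes, 26413 received a symbol by matching transcript accessions to RefSeq genes (GRCm38.p6). Probes passed where 3 or more of the 6 arrays read well above background, and the probe with the highest mean stood for its gene, giving 15750 genes (35 lacking a value on 1 array). KO and WT were compared with limma 3.58.1 in R 4.3.3 (lmFit and eBayes without trend), without covariates, with two-sided p-values, Benjamini-Hochberg adjusted over the 15750 genes, and a threshold of 0.05. The number of arrays limits the precision. Promoter letters came from RefSeq windows of 300 bases.

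The members, the other gene lists and the tests were chosen with earlier results of these data known. All 42 members are named. By rule, values on every array were given for the 16 members with the lowest p, for 9 members picked by name and for members whose direction turned with the slide or scaling. Outside that rule, such values were also given for Nuf2, Cenpf and Cdc25c. Of the other lists, genes past the threshold were named, except 1 that is not reported here. All 7 CDK inhibitors and the progenitor markers Cebpe, Cd34 and Myb were named after their values were seen. Alternatives covered scaling, background correction (normexp with offset 50, run on median spot signals, since the files hold no mean signals), the filter, the slide, sex, probes, outlier spots, the variance model, the threshold and each array left out.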

Additional observations from a re-analysis of the deposited data

How the results depend on the processing

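No paired analysis was possible because the genotypes share no replicate numbers. In the order all genes, mitosis and G2/M genes that rose, wider mitosis list, and DNA replication and G1/S list, the analysis reported above called 538, 1, 4 and 5. Counts that moved by over 1.5 times are given here. Quantile normalization gave 343, 0 and 3 (all genes, mitosis and G2/M, G1/S). Scaling to the array median gave 2, 9 and 14 for the 3 lists. No filter gave 275, 0, 2 and 2. The slide as a fixed block gave 84, 0, 0 and 0, as a random block 255, 0, 1 and 1, and the slide with both genotypes only 24, 0, 0 and 0. Sex as a covariate gave 301, 0, 1 and 1, and male arrays only 183, 0, 0 and 0. Every probe on its own gave 0, 1 and 2 for the 3 lists. Trend and robust variances gave 809, 2 and 11 (all genes, mitosis and G2/M, G1/S). Array weights gave 1750, 4, 18 and 11, and a threshold of 0.1 gave 1152, 3, 10 and 10. With single arrays left out the counts ran from 77 (without WT 1) to 899 (without KO 947), from 0 to 3, from 0 to 7 and from 0 to 5. The cause of these changes was not tested, except that leaving out arrays and the 1-slide and male analyses have fewer samples.

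The median difference of the mitosis and G2/M genes stayed above 0 under every alternative, from 0.15 to 0.51 over the alternatives on the scanner values. Single genes near 0 turned direction. With quantile normalization Bub3 was -0.021, Cenpe -0.028 and Ndc80 0.098. With median scaling Bub1b was 0.21, Cenpa 0.067, Ndc80 0.20 and Ube2c 0.14. With normexp Bub3 was -0.051, Cdca8 -0.0059, Ndc80 0.074 and Plk1 -0.037. With the slide as a fixed block, or that slide alone, Aurkb was -0.038, Bub1 -0.057, Bub1b 0.34, Cenpa 0.32, Ndc80 0.019 and Ube2c 0.13, and with a random block Bub1b was 0.11 and Cenpa 0.0099. On male arrays Aurkb was -0.064, Bub1b 0.15, Bub3 -0.031 and Kif20a -0.0018. With array weights Bub3 was -0.057 and Cenpe -0.024. With single arrays left out, differences ran from -0.18 to 0.18 for Bub1b, -0.051 to 0.15 for Bub3, -0.019 to 0.34 for Cdc20, -0.025 to 0.69 for Cdc25c, -0.037 to 0.26 for Cdca8, -0.053 to 0.19 for Cenpe, -0.11 to 0.83 for Cenpf, -0.14 to 0.22 for Kif11, -0.084 to 0.21 for Mki67, -0.091 to 0.060 for Ndc80, -0.052 to 0.71 for Nuf2, -0.014 to 0.31 for Ttk and -0.18 to 0.050 for Ube2c. The cause was not tested.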

Other observations

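Within the wider list, the cohesin, condensin and separation genes, which hold and compact sister chromatids, were above 0 in 16 of 19, with a median difference (KO minus WT) of 0.20 and 0 past the threshold. Its spindle, motor and cytokinesis genes were above 0 in 35 of 37, with a median of 0.33 and 0 past the threshold. The genes that the list groups as G2/M regulators ran from -0.92 to 1.34, with 20 of 25 above 0 and a median of 0.24. Wee1 and Cdca7 were the 2 past the threshold, and Cdca7 is in this group by the list alone.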
